A study of Mus musculus with 24 samples.

Results

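In leukemic splenocytes with KDM1A knocked down, 2611 short regions listed as unique to the knockdown (KD regions) ran on from a shared H3K4me3 region at exactly 1 of their 2 ends. They are called one-end KD regions here. They were taken from the KD list of the autosomes 1 to 14 and 16 to 19, had a length under 1000 bp, and overlapped, abutted or lay 1 bp from a region listed as common to both conditions at 1 end and not at the other. They made up 19.9% of the 13088 KD regions of these 18 autosomes and belong to 63425 regions in the 3 deposited lists. They were chosen by measured values, namely the deposited score behind each list, the region's length and its position beside common regions. Their direction, score and contact are therefore descriptions and were not tested.

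The study profiled H3K4me3 by chromatin immunoprecipitation and sequencing in CLL leukemic splenocytes of C57BL/6 mice. All groups carry the Eµ-TCL1A transgene, whose immunoglobulin enhancer drives TCL1A in B cells and gives a disease resembling chronic lymphocytic leukemia. Untreated cells with KDM1A wild type (WT) and cells with KDM1A knockdown (KD) were each represented by 6 immunoprecipitated and 6 input libraries, from 3 biological replicates that had 2 technical replicates apiece. The way the knockdown was made and the animals' sex and age were not stated, and cell type markers could not be checked in region lists. The lists give 1 score per region and no value, count or depth per library. No difference below could be set against the spread between replicates, and a knockdown effect and a difference in depth, enrichment or scaling between the conditions cannot be told apart. Shares carry 95% Wilson intervals and medians carry 95% binomial intervals, both of which cover counting error only. The spread between autosomes is given beside some of these values only.

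H3K4me3 is laid down by the SET1 and MLL methyltransferase complexes on nucleosomes around active transcription start sites, and its width differs from narrow peaks to broad domains, which in many cell types mark genes of cell identity. KDM1A (LSD1) takes methyl groups from mono- and dimethylated lysine 4 of histone H3 and cannot act on the trimethylated form, which is the substrate of the KDM5 enzymes. A region such as those described here is a stretch at the border of a shared mark that passed the authors' comparison in 1 condition alone. No genome sequence or gene annotation of the build GRCm39 was used, so no region is placed at a gene, start site, exon or intron, and no sequence is shown.

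KD regions made up 22.4% of all listed regions on the 18 autosomes and WT regions 8.58%, which is the background for any count by list. Among KD regions under 1000 bp, 11875 in all, 22.0% (21.3 to 22.7%) touched a common region at 1 end. A further 21.3% bridged 2 common regions, 8.93% lay nested with both ends in the same common region, and 47.8% had no end in contact. The 4306 WT regions under 1000 bp were divided otherwise. Of these, 709 (16.5%, 15.4 to 17.6%) touched at 1 end, 45.7% bridged 2 common regions, 8.27% were nested and 29.6% had no contact.

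**Figure D1:**
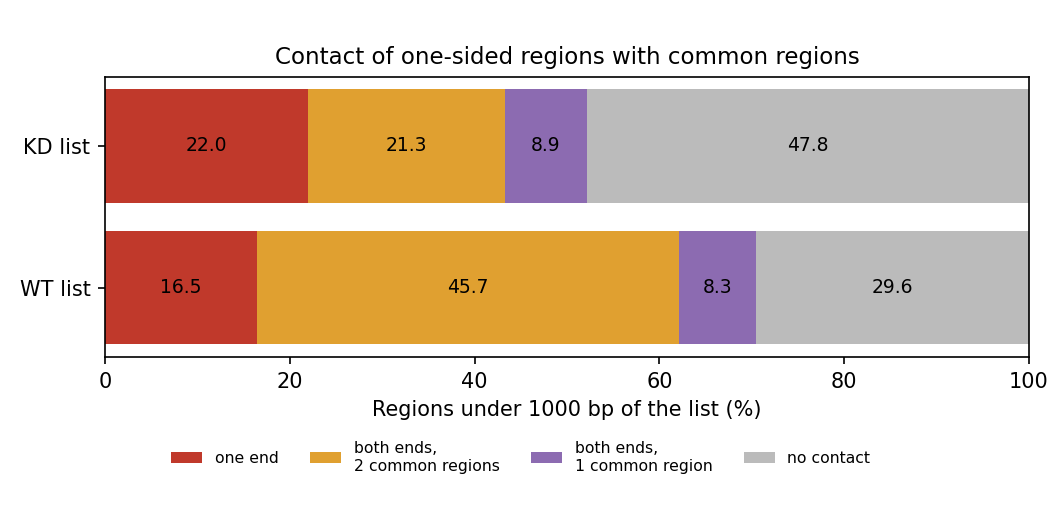
Stacked bars give the percentage of KD and WT regions under 1000 bp on 18 autosomes in each class of contact with common regions. One-end contact made up 22.0% of the KD list and 16.5% of the WT list, and bridges between 2 common regions made up 21.3% and 45.7%.

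Counted over the regions in contact, the one-end form was more frequent in the KD list. It made up 42.1% (40.9 to 43.4%) of 6198 contacting KD regions and 23.4% (21.9 to 24.9%) of 3032 contacting WT regions. The autosomes ranged from 36.2% (chromosome 19) to 51.5% (chromosome 2) in the KD list and from 16.5% (17) to 28.3% (14) in the WT list, so that the 2 ranges did not overlap. The KD share rose with the length of the region. It was 35.4% (33.5 to 37.4%) at 200 to under 300 bp, 43.4% (41.4 to 45.4%) at 300 to under 500 bp and 51.0% (48.4 to 53.5%) at 500 to under 1000 bp. The WT share was 22.2%, 21.5% and 27.2% in the same classes.

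The one-end KD regions were small. Their length had a median of 349 bp (343 to 360 bp), with quartiles of 276 and 528 bp and a shortest length of 200 bp. The shortest region of each deposited list was also 200 bp long, so that shorter regions are not in the lists. The deposited score, which is above 3 in every KD region, had a median of 4.30 (4.25 to 4.34) with quartiles of 3.82 and 5.03. Bridging KD regions of the same length limit had a median of 356 bp and a score of 4.34, nested ones 264 bp and 3.50, and those without contact 318 bp and 4.69. One-end WT regions were longer, with a median of 402 bp (376 to 421 bp), and scored higher, with a median of 4.73 (4.63 to 4.82).

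Contact was mostly overlap. Of the one-end KD regions, 2168 (83.0%, 81.5 to 84.4%) overlapped the common region that they touched, 424 abutted it and 19 lay 1 bp away. Where there was an overlap it had a median of 82 bp (76 to 87 bp) and reached 598 bp. The sequence that a one-end region added beyond the common region therefore had a median of 291 bp (284 to 299 bp) and ranged from 2 to 992 bp, and 175 regions (6.70%) added less than 100 bp. Over 50% of the region lay inside the common region in 344 cases (13.2%). Summed over all 2611, the added sequence came to 881 kb beside 3561 kb of touched common regions. One-end WT regions added a median of 335 bp (325 to 346 bp) and 271 kb in all.

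The regions next to the length limit were looked up on both sides. The 3 longest inside it scored 5.93, 5.87 and 4.48, and the third of them measured 996 bp. The 3 shortest outside it measured 1000, 1001 and 1002 bp with scores of 11.8, 6.82 and 4.75, and 454 one-end KD regions of 1000 bp or more were left out in all. Raising the permitted gap from 1 to 2 bp changed the number from 2611 to 2616, and at 10 bp it was 2683.

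Direction along the chromosome was near even in the full set. Of the 2611 regions, 1272 (48.7%, 46.8 to 50.6%) lay on the higher-coordinate side of the common region and 1339 on the lower side. The share ranged from 44.0% on chromosome 6 to 56.3% on chromosome 14. One-end WT regions lay on the higher side in 371 of 709 cases (52.3%, 48.6 to 56.0%). Neither interval excluded 50%. Among one-end KD regions at or above the median score of their list the share on the higher side was 46.9% (43.9 to 49.8%), an interval below 50%. At a score of at least 5 it was 47.6% (43.9 to 51.4%), an interval that included 50%. The direction relative to transcription was not analysed here.

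The regions were spread over 2471 distinct common regions, 6.12% of the 40376 on the 18 autosomes, against 681 (1.69%) for one-end WT regions. The touched common regions were somewhat shorter than common regions at large, with a median of 770 bp (721 to 812 bp) against 873 bp (858 to 889 bp), and ranged from 200 to 21992 bp. Those touched by one-end WT regions had a median of 567 bp (536 to 630 bp). This difference between the lists was lost at higher scores. At a score of at least 5 the medians were 680.5 bp (624 to 758 bp) for KD and 629.5 bp (541 to 764 bp) for WT, with overlapping intervals.

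The share of common regions that were extended changed with their length, and did so differently in the KD and WT lists. Extension by a one-end KD region was found for 6.00% (5.62 to 6.40%) of common regions under 500 bp. It was highest at 500 to under 1000 bp, with 8.10% (7.502 to 8.737%). That order was not seen once common regions within 1 kb were joined and only extensions of the outer ends were counted (9.21% and 8.87%). The share was 6.69% (6.14 to 7.30%) at 1000 to under 2000 bp, 4.55% (4.10 to 5.05%) at 2000 to under 4000 bp and 4.74% (4.13 to 5.43%) at 4000 bp and over. One-end WT regions extended 2.08% (1.86 to 2.33%) of the shortest class and 0.464% (0.297 to 0.723%) of the longest. As a result the number of common regions extended by KD per 1 extended by WT was 2.88 (2.53 to 3.29) under 500 bp, 3.36 at 500 to under 1000 bp, 3.98 at 1000 to under 2000 bp, 5.17 at 2000 to under 4000 bp and 10.2 (6.40 to 16.3) at 4000 bp and over. In the longest class 194 common regions were extended by KD and 19 by WT, the KD number was the higher one on 18 of 18 autosomes, and 8 autosomes had no WT extension in that class. Between autosomes the WT share ranged from 1.03 to 3.15% under 500 bp and from 0.238 to 4.14% at 500 to under 1000 bp. At 4000 bp and over it ranged from 0 to 1.79%. The lists held 13088 KD and 5015 WT regions on the 18 autosomes, and none of these ratios and counts is scaled to that difference in size. They also count one-end regions only and leave out bridges. Over all ends of common regions, 10.6% had any KD region (6.80% a bridge) and 6.39% any WT region (5.29% a bridge). With a score of at least 5 in both lists the 2 outer ratios were 2.16 (1.74 to 2.69) and 4.67 (2.31 to 9.45), whose intervals overlapped. At or above the median score of each list they were 3.86 (3.10 to 4.81) and 10.6 (4.96 to 22.5), whose intervals did not overlap.

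**Figure D2:**
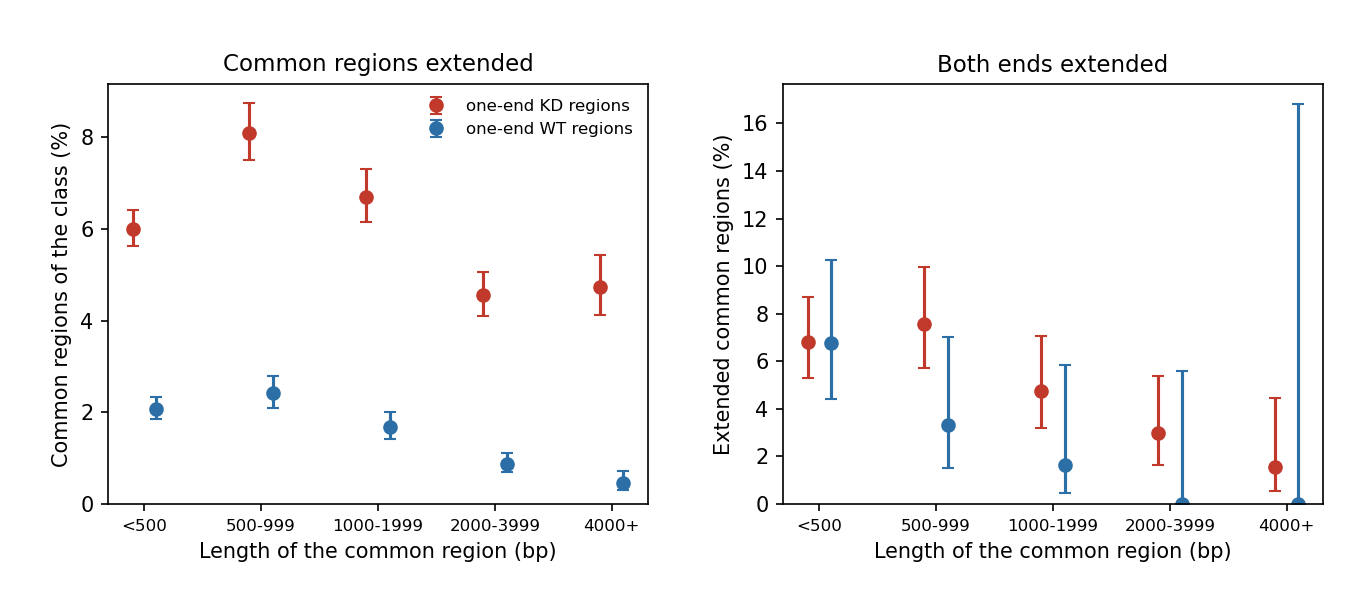
Points are the percentage of common regions in each length class with a one-end KD or WT region (left) and, of these, the percentage with one at both ends (right), with 95% Wilson intervals. KD extension fell from 8.10% at 500 to under 1000 bp to 4.74% at 4000 bp and over, and WT extension fell from 2.41% to 0.464%.

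The sequence added was also compared between touched regions of different length. The rule confines every one-end region to 200 to under 1000 bp, which limits how far these values can differ. Across the 5 length classes of touched common regions, the median sequence added was 294, 305, 274, 281 and 296 bp from the shortest to the longest class, and the median score was 4.37, 4.30, 4.20, 4.31 and 4.23. Over the 2611 regions, Spearman's rho of the length of the touched region with the sequence added was -0.03 and with the score -0.04. These points share their libraries and the length limits, and no test is given. With no length maximum, which adds the 454 longer one-end KD regions, the medians were 328, 340, 317, 310 and 330 bp and rho was -0.02 over 3065 regions. In relative terms the extension came to a median of 89.9% of the touched region under 500 bp, 42.4% at 500 to under 1000 bp, 19.2% at 1000 to under 2000 bp, 9.96% at 2000 to under 4000 bp and 5.22% at 4000 bp and over. The score of a one-end KD region was related to the sequence it added, with a rho of 0.62. The rule used both the score and the length, of which the added sequence is a part, so this rho is a description as well.

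**Figure D3:**
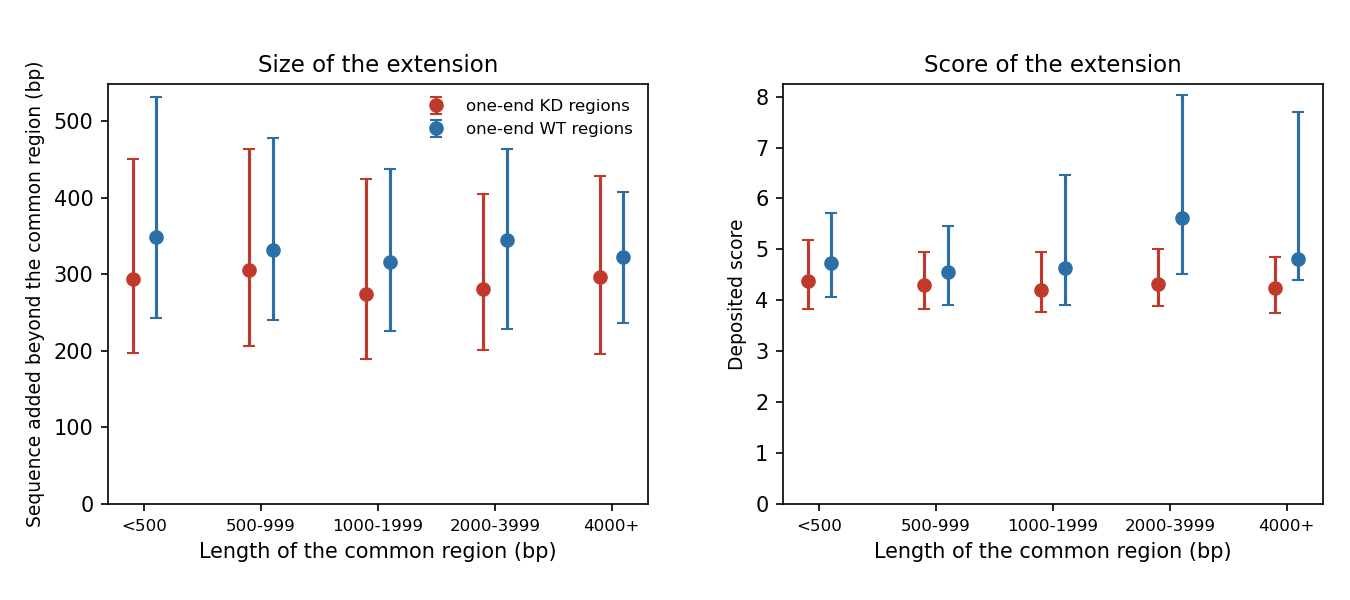
Points are medians and bars the quartiles of the sequence added beyond the common region (left) and of the deposited score (right), by length class of the touched common region. The KD medians stayed between 274 and 305 bp and between 4.20 and 4.37 in all 5 classes.

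The touched common regions themselves had high scores within their own list. The score of a common region is below 3 and has no direction. Its median was 1.18 (1.14 to 1.22) for the 2471 regions touched by one-end KD regions and 0.507 for all common regions. Within length classes the touched regions scored 1.72 against 0.544 under 500 bp, 1.31 against 0.653 at 500 to under 1000 bp, 0.956 against 0.545 at 1000 to under 2000 bp, 0.633 against 0.452 at 2000 to under 4000 bp and 0.555 against 0.441 at 4000 bp and over. The separation was thus widest in short regions. Regions touched by one-end WT regions had the same median of 1.18 (1.07 to 1.25). These scores come from the contrast that chose the regions and are given as a description.

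Most touched common regions were extended at 1 end only. Of the 2471 touched common regions, 2331 had a one-end KD region at 1 end and 140 (5.67%, 4.82 to 6.65%) at both ends, with a range of 2.74% on chromosome 12 to 8.97% on chromosome 4. Regions extended at both ends were the shorter ones, with a median of 533 bp (492 to 637 bp) against 790 bp (739 to 832 bp). The both-end share was 6.82% under 500 bp, 7.57% at 500 to under 1000 bp, 4.77% at 1000 to under 2000 bp, 2.98% at 2000 to under 4000 bp and 1.55% (3 of 194, 0.527 to 4.45%) at 4000 bp and over. The score of the common region was also higher, with medians of 1.63 (1.46 to 1.78) against 1.15 (1.10 to 1.19).

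Extension of 1 end was more frequent where the other end was extended. Of the 1339 common regions with the lower end extended, the higher end was extended in 10.5% (8.93 to 12.2%), against 2.90% (2.74 to 3.07%) of the 39037 others. The first share was the higher one on 18 of 18 autosomes. The gap between the shares narrowed with length, from 12.2% against 2.73% under 500 bp to 2.86% (0.976 to 8.07%) against 2.23% (1.82 to 2.74%) at 4000 bp and over, where the intervals overlapped. The WT list had the same order over all classes, with 8.28% (5.79 to 11.7%) against 0.857% (0.771 to 0.952%). There the first share was the higher one on 12 of 18 autosomes. Over the 140 pairs of KD extensions, Spearman's rho between the lengths at the 2 ends was 0.06, a description over pairs that share their common region and libraries.

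The opposite end of the touched region was next examined for any KD or WT region in contact. Of all 80752 ends of common regions, 10.6% had a KD region (6.80% a bridge) and 6.39% a WT region (5.29% a bridge). Of the 2611 one-end KD regions, 1766 (67.6%, 65.8 to 69.4%) extended a common region whose other end had no KD or WT region in contact. In 280 cases the other end had another one-end KD region under 1000 bp, in 52 a longer one, and in 440 (16.9%) a KD region that bridged to a further common region. Any KD region was found there in 772 cases (29.6%, 27.8 to 31.3%). The other end had a WT region in 73 cases (2.80%, 2.23 to 3.50%), and 9 common regions had a one-end KD region at 1 end and a one-end WT region at the other. For one-end WT regions the order was the mirror image, with a WT region at the other end in 27.4% (24.2 to 30.8%), a KD region in 2.12% (1.29 to 3.46%) and neither in 70.5%. Counting every KD region in contact, 25.6% (23.9 to 27.3%) of the touched common regions had a KD region at both ends. Nested KD regions were also more frequent in the touched common regions, 5.50% (4.67 to 6.47%) against 2.47% (2.32 to 2.63%) of all common regions, and nested WT regions less so, 0.121% (0.0413 to 0.356%) against 0.850% (0.765 to 0.944%).

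The 5 common regions whose 2 one-end KD regions had the largest summed length were all between 356 and 749 bp long. On chromosome 10, a common region of 534 bp at 92979269 to 92979802 was extended by 937 bp on its lower side (score 8.64) and by 568 bp on its higher side (score 4.13). On chromosome 8, 692 bp at 120543544 to 120544235 gained 609 and 650 bp, with scores of 5.02 and 9.57. On chromosome 4, 466 bp at 138979698 to 138980163 gained 825 and 404 bp, with scores of 6.65 and 6.88. On chromosome 2, 356 bp at 166395529 to 166395884 gained 762 and 630 bp, with scores of 4.92 and 6.08, and the nearest common regions lay 95455 and 68899 bp away. On chromosome 7, 749 bp at 28700591 to 28701339 gained 474 and 591 bp, with scores of 5.89 and 4.48. In all 5 the sequence added at both ends together exceeded the length of the common region, which their choice by summed length favours. On chromosome 7 a further common region lay 147 bp beyond the lower extension.

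The surroundings of the touched regions were examined next. For this, a one-end region was called facing if another common region lay within 1 kb of its free end, an outer edge if it was not facing but its common region had a common neighbour within 1 kb behind it, and single if neither held. Of the 2611 one-end KD regions, 1089 (41.7%, 39.8 to 43.6%) were single, 681 (26.1%, 24.4 to 27.8%) were outer edges and 841 (32.2%, 30.4 to 34.0%) were facing. One-end WT regions were single in 54.4% (50.8 to 58.1%), outer edges in 15.7% (13.2 to 18.5%) and facing in 29.9% (26.6 to 33.4%). Between autosomes these WT shares ranged from 39.6 to 71.4%, from 2.86 to 26.3% and from 18.5 to 52%. At a score of at least 5 the shares of single regions were 48.1% (44.3 to 51.8%) for KD and 52.1% (46.3 to 57.7%) for WT, with overlapping intervals. The 3 settings gave one-end KD regions median lengths of 349, 373 and 335 bp and median scores of 4.36, 4.31 and 4.22 for single, outer and facing regions.

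Distances to further common regions differed between the lists in the pooled medians. From the other end of the touched common region, the next common region was a median of 2463 bp away (1994 to 2970 bp) for KD and 17966 bp (12949 to 21993 bp) for WT, and 3211 bp for all ends of common regions. From the free end the medians were 5514 bp (4745 to 6383 bp) and 18094 bp (14680 to 24444 bp). The rule left out bridges, whose free end also met a common region. There were 2526 of these in the KD list and 1967 in the WT list, beside 2611 and 709 one-end regions. The shortest free-end distances were thus removed unequally in the 2 lists. No distance from the other end was 100 bp or less for KD or WT. Free ends had no such floor, with 4.44% of KD distances at 10 bp or less. The distances of WT regions changed with the touched length. From the free end the WT median was 34191 bp for touched regions under 500 bp and 429 bp (227 to 495 bp, n = 19) at 4000 bp and over, against 4646 and 2689 bp for KD, and the WT median was the lower one in the 3 classes from 1000 bp up. Within 1 kb of the free end the shares were close, 32.2% for KD and 29.9% for WT. Beyond the free end, the next region of any list within 1 kb was another KD region for 382 one-end KD regions (14.6%, 13.33 to 16.04%) and a WT region for 37 (1.42%, 1.03 to 1.95%). For one-end WT regions these values were 6.06% for a KD region and 9.87% for a WT region. A common region was the next one within 1 kb in 26.3% of KD and 19.7% of WT cases, more often than a region of either one-sided list. The KD list is also the longer one, which these shares do not take into account.

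**Figure D4:**
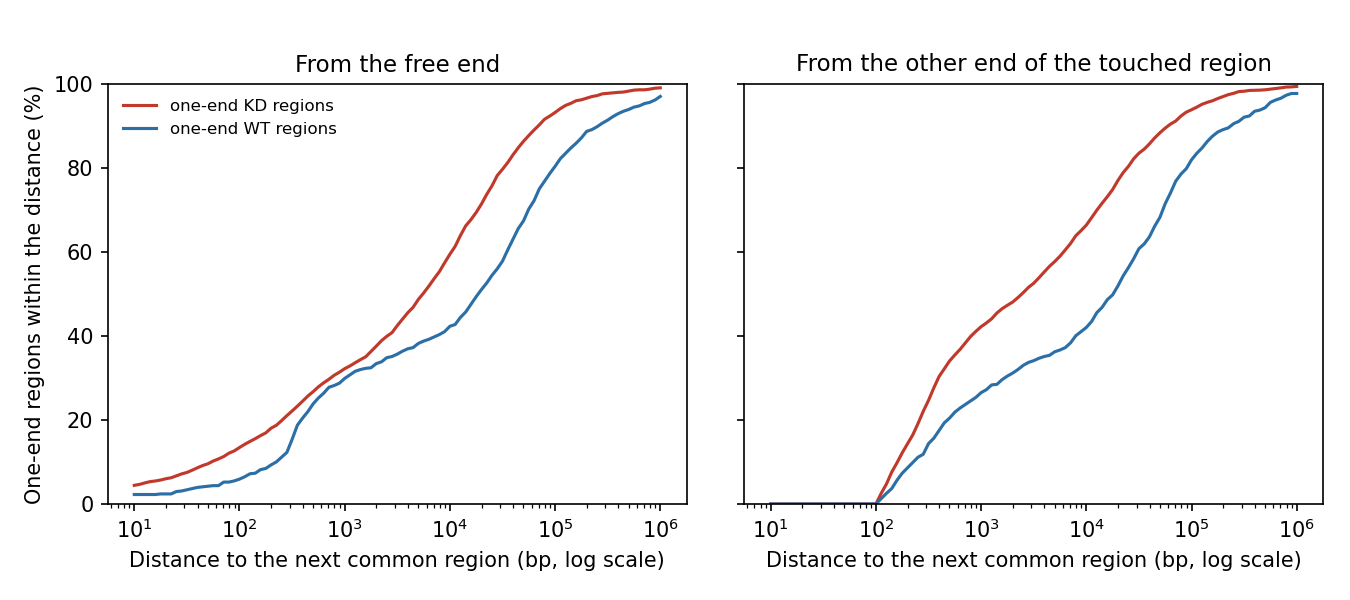
Curves give the percentage of one-end KD and WT regions whose next common region lies within a distance (log scale), from the free end (left) and from the other end of the touched common region (right). The medians were 5514 and 18094 bp on the left and 2463 and 17966 bp on the right. Bridges, whose free end met a common region, were left out by the rule. No distance on the right, which is a gap between neighbours of the common list, was 100 bp or less.

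The gap beyond a facing region was often short. The free end of 209 one-end KD regions lay 2 to 50 bp from a common region, and 41 others held a second, whole common region inside them. Over the 800 facing regions with a gap left, the gap had a median of 177 bp (147 to 199 bp) with quartiles of 45.8 and 404 bp. In facing WT regions the gap was wider, with a median of 318 bp (301 to 333 bp). If contact was allowed at a gap of 200 bp, the number by the rule was 3274 and the share facing fell to 17.6%.

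Joining common regions within 1 kb gave 23565 strings of common regions, with a median length of 2093 bp. One-end KD regions that were not facing extended the outer end of 1665 strings (7.07%, 6.75 to 7.40%), of which 105 (6.31%, 5.24 to 7.58%) were extended at both outer ends. Strings with no such extension had a median length of 2148 bp (2098 to 2200 bp), those with 1 extended end 1579 bp (1486 to 1704 bp) and those with both 700 bp (534 to 1020 bp). In strings the KD share at 500 to under 1000 bp was 8.87% (7.93 to 9.92%), an interval that held the 9.21% of the shortest class. The ratio of KD to WT was below that of single common regions in the 3 classes under 2000 bp and above it in the 2 longer ones. Under 500 bp, 9.21% of strings were extended by KD and 4.87% by WT, a ratio of 1.89 (1.58 to 2.26). At 4000 bp and over, 6.01% (389 strings) were extended by KD and 0.263% (17 strings) by WT, a ratio of 22.9 (14.1 to 37.0). The ratios for strings are not scaled to the size of the KD and WT lists either, and they too leave out bridges. The limit of 1 kb for the strings was chosen with these data in view.

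High scores were rare. A score of 10 or more was found for 42 one-end KD regions (1.61%). Of these 31 (73.8%, 58.9 to 84.7%) faced another common region, against 34.0% at scores of 3 to 4, 33.3% at 4 to 5 and 25% at 5 to 10. They overlapped their common region seldom. No overlap was found for 31 of the 42 (73.8%), against 8.45%, 16.2% and 26.7% in the lower classes. Their common regions had a median length of 1660 bp (858 to 1973 bp), against 795, 774 and 637 bp. At scores of 5 to 10 the one-end regions were the longest, with a median of 495 bp (466 to 521 bp) and 439 bp of added sequence.

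The 10 one-end KD regions with the highest scores all faced a second common region, between 24 and 611 bp from their free end, and 9 of them abutted the touched region without overlap. The highest score, 72.4, belonged to a region of 910 bp on chromosome 2 (179617326 to 179618235). It began where a common region of 3019 bp ended, and the next common region lay 335 bp further on. On chromosome 6 (48024963 to 48025452, 490 bp, score 54.0) the region lay on the lower side of a common region of 1973 bp and 472 bp from the next. On chromosome 12 (113061828 to 113062187, 360 bp, score 51.2) it lay 340 bp from the next common region. The next score after these 3 was 38.6.

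The next 7 had scores from 38.6 down to 23.8. Chromosome 13 held 3 of them, at 49024028 to 49024525 (score 38.6), 69682049 to 69682503 (24.97) and 43634075 to 43634373 (23.8), with gaps of 362, 359 and 333 bp left at the free end. Chromosome 8 held 2, at 84724593 to 84724946 (35.8) and 85526379 to 85526928 (27.8), the second of which lay 24 bp from the next common region. Chromosome 11 held 1 (77384099 to 77384408, 29.8), as did chromosome 14 (104703840 to 104704137, 26.6). In both of these, a WT region bridged from the other end of the touched common region to a further one, so that KD and WT regions lay on opposite sides of the same shared mark.

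The extremes of the touched lengths were also looked up. The longest touched common region, 21992 bp on chromosome 9 (32605448 to 32627439), was extended at its lower end by a region of 472 bp with a score of 5.34, 11 bp from the next common region. A common region of 15554 bp on chromosome 2 (3714425 to 3729978) abutted a one-end region of 635 bp (score 4.35), and one of 15111 bp on chromosome 11 (79408859 to 79423969) had one of 285 bp (score 4.70). At the other extreme were common regions of 200 bp. The highest-scoring of these extensions were 789 bp on chromosome 9 (43150875 to 43151663, score 9.51), 776 bp on chromosome 17 (35441016 to 35441791, score 8.04) and 343 bp on chromosome 7 (100155909 to 100156251, score 6.33).

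One-end KD regions outnumbered one-end WT regions on 18 of 18 autosomes, with 3.68 of them per WT region in all, a lowest ratio of 1.79 on chromosome 12 and a highest of 7.56 on chromosome 19. The lists held 13088 KD and 5015 WT regions on these autosomes, a difference in size that these counts and ratios do not take into account. Per 100 common regions there were 4.55 one-end KD regions on chromosome 12, a median of 6.41 and 8.23 on chromosome 7. One-end WT regions ranged from 0.967 on chromosome 19 to 2.55 on chromosome 12. Autosomes with more one-end KD regions tended to have fewer one-end WT regions, with a Spearman's rho of -0.54 over the 18 autosomes. These values share their libraries and the number of common regions as denominator, and the rho is a description.

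**Figure D5:**
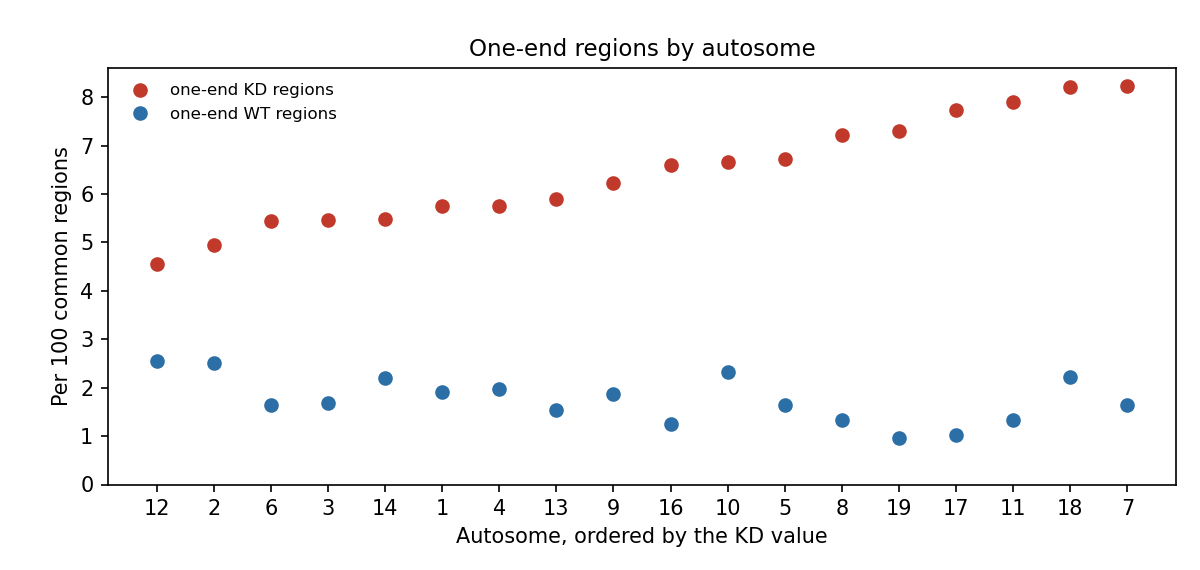
Points are one-end KD and WT regions per 100 common regions on each of 18 autosomes, ordered by the KD value. KD values ran from 4.55 to 8.23 and WT values from 0.967 to 2.55, with no overlap between the lists. The values are not scaled to the size of the KD and WT lists.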

How the data were processed

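H3K4me3 immunoprecipitates and inputs were sequenced from 24 libraries. Bowtie2 2.2.9, SAMtools 1.6, MACS2 2.2.6 and the build GRCm39 were used per the submitters' processing notes. Order, settings and any pooling: not given in the sources used here. Deposited by the authors were 3 lists of regions, unique to KD, unique to WT and common per the file headers, each with a score per region whose definition the headers do not give. The lists hold 0 columns with values per library.

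Contacts, distances and shares were computed with scipy 1.17.1, numpy 2.4.6 and pandas 2.3.3 under Python 3.11.15 (figures: matplotlib 3.10.9). An end was in contact if a common region covered it or lay within 1 bp outside it. A region with both ends in 1 common region was nested. The code was tested on simulated lists with known contacts. Chromosome 15 and the sex chromosomes were left out by the rule. The regions, groupings and named regions were chosen with earlier results of these data known. Named were the 10 highest scores, the 5 common regions with the largest summed length of paired extensions, the 3 longest and 3 shortest touched regions and 3 regions on each side of the length limit. Planned gene lists, promoters, direction relative to genes and sequences were not analysed here, since the reference at hand is of another build (GRCm38). Strings of common regions, score classes and the KD to WT ratio by length were chosen after values had been seen. Alternatives changed score, length, gap, chromosomes and the joining of common regions. Coordinates are 1-based on GRCm39.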

Additional observations from a re-analysis of the deposited data

How the results depend on the processing

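No paired analysis was possible because each region has 1 score and none per library. Leaving out a replicate was not run either. Direction relative to genes was not run. Over 9 alternatives, 89 of 204 values stayed within their interval (counts within 1.5 times) and 115 moved. The KD one-end share of contacting regions was above the WT share in every alternative that gave both. The class of 500 to under 1000 bp had the highest extended share in the 8 alternatives that gave shares by class. This was not seen in strings of common regions joined within 1 kb, which leave out facing regions (9.21% under 500 bp, 8.87% at 500 to under 1000 bp). In each list of 5 percentages below, common regions run from the shortest to the longest class.

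With a score of at least 5 there were 674 one-end KD regions (median score 5.69), 53.4% of contacting KD regions against 19.9% for WT. Extended shares were 1.80, 2.08, 1.63, 1.16 and 1.03%, both-end extension 2.74%, touched lengths 680.5 (KD) and 629.5 bp (WT), the median per 100 common regions 1.65, the free-end distance 6938 bp with 28.0% within 1 kb, and the KD to WT ratios 2.16 (shortest class) and 4.67 (longest). At or above each list's median score the number was 1084 (score 5.21), with 50.2% against 18.9%, shares of 2.72, 3.54, 2.65, 1.84 and 1.81%, both-end extension 2.94%, touched lengths of 717 (KD) and 675.5 bp (WT), 2.58 per 100 and 29.2% within 1 kb. The KD to WT ratios there were 3.86 (shortest class) and 10.6 (longest).

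Under 500 bp of length the shares of contacting regions were 39.4% and 21.8%, extended shares 4.38, 5.54, 4.96, 3.66 and 3.56%, both-end extension 3.42%, score 4.12, 4.61 per 100 and the shortest-class ratio 3.34. With no length maximum these were 44.6% and 26.2%, then 6.94, 9.39, 7.74, 5.28 and 5.57%, both-end extension 6.98%, score 4.46 and 7.35 per 100.

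A gap of 50 bp gave 43.6% for KD, extended shares of 7.10% (shortest class), 7.40% (1000 to under 2000 bp) and 5.47% (longest), and a free-end distance of 7328 bp with 25.2% within 1 kb. A gap of 200 bp gave 44.4% and 25.1%, extended shares of 7.91, 9.59, 7.99, 5.72 and 6.15%, 9248 bp with 17.6% within 1 kb, 7.95 per 100 and a shortest-class ratio of 3.32. Joining common regions within 200 bp gave touched lengths of 952 (KD) and 643 bp (WT) and shares of 7.07, 9.31, 7.67, 5.12 and 5.88%. Counting any KD region in contact raised both-end extension to 25.6%. With chromosome 15 the shortest class had 6.58% extended and a ratio of 3.31. The depth of the libraries is unknown, which limits every value here.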
